A study of Bos taurus with 12 samples.

Results

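The nuclear-encoded subunits of respiratory complexes II to V and cytochrome c were compared in bovine 2-cell blastomeres whose sister cells had different fates. Members were the genes whose symbol in the array's probe table begins with UQCR, COX4 to COX8 or ATP5, or is SDHA, SDHB, SDHC, SDHD, CYC1 or CYCS. The rule found 45 genes with 69 probes, among 15213 genes with a symbol and 43793 probes in all. They were 4 genes of complex II, 8 of complex III, cytochrome c, 16 listed for complex IV and 16 listed for complex V. Current symbols are used, and 19 of the 45 stood in the table under an older one. Among these, 2 matched through an older symbol alone and encode no subunit. They are EMC8 (COX4NB in the table), a subunit of the membrane protein complex of the endoplasmic reticulum, and DMAC2L (ATP5S in the table), also known as a coupling factor of the ATP synthase. The other 43 encode subunits, cytochrome c or, for COX7A2L, a factor that joins complexes III and IV.

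Embryos (Bos taurus, cultured in vitro) were split at the 2-cell stage, and the blastomeres frozen at once were pooled by what their cultured sisters had become by day 7. BL pools held cells whose sisters formed a blastocyst, 2CB pools held cells whose sisters never cleaved, and 8CB pools held cells whose sisters stopped early. The labels name this last class 8CB but describe an arrest at 4 cells, so only its name is used. No treatment or genotype is named for any class. The classes share their stage and differ in the fate of the sister, which stands in for the fate of the cell measured. There were 3 independent pools of 15 blastomeres per class, with amplified RNA. Each comparison used 6 arrays, BL with 2CB or BL with 8CB, of which 3 had the dyes swapped. In such pools, fewer contributing cells and less RNA per cell cannot be told apart.

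The respiratory chain of the inner mitochondrial membrane passes electrons to oxygen and pumps protons. Complex II (succinate dehydrogenase) feeds electrons from the citric acid cycle into ubiquinone, complex III passes them to cytochrome c, complex IV passes them from cytochrome c to oxygen, and complex V (ATP synthase) uses the proton gradient to make ATP. Cleavage-stage embryos live on mitochondria inherited from the oocyte and depend on them for much of their ATP. Subunits encoded by the mitochondrial genome were not analysed here.

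Every value is a deposited log2 ratio between the 2 classes on an array, so it is a difference and not a level. Which class forms the numerator is not settled by the labels, and values are given by the positive or negative side of the ratio. Arrays of opposite dye but one replicate number deviated from their group means in the same direction in 5 of 6 pairs (median r = 0.38 across probes). Swapped columns were therefore taken to run the same way and averaged, which gave 3 averaged ratios per comparison. The pair that deviated in opposite directions was number 3 of BL against 8CB (r = -0.22). The columns with BL in Cy5 were written with 6 significant digits and those with BL in Cy3 with 9 or 10. Limma was fitted over all genes, each gene taken as its probes' mean, and adjusted p-values are Benjamini-Hochberg over all genes. Unless another setting is named, each SE is limma's, from a moderated spread shared by both comparisons. It is not the spread of the 3 ratios of a comparison alone.

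No member passed an adjusted p under 0.05 in either comparison, and neither did any of the 15213 genes (0%). At an unadjusted p under 0.05, which is used below only to describe, there were 11 of 45 members (24.4%) in BL against 2CB, where all genes gave 18.0%. Of these, 5 lay on the positive side (8.54% of all genes) and 6 on the negative side (9.49% of all genes). In BL against 8CB there were 6 of 45 (13.3%), where all genes gave 11.0%, with 2 positive (5.61%) and 4 negative (5.41%). The shares of members were thus near those of all genes. The median over members was -0.05 in BL against 2CB, beside 0.01 over all genes, and -0.02 in BL against 8CB, beside 0.005 over all genes. Sizes were larger than among all genes: the median of the absolute log2 ratio was 0.17 for members and 0.08 for all genes against 2CB, and 0.12 and 0.06 against 8CB. All genes with a symbol entered without a filter on signal, so sizes were not compared at like signal. One side was kept in 3 of 3 replicates by 24 members against 2CB (45.0% of all genes) and by 10 against 8CB (29.2% of all genes). These replicates hold the averaged ratios, and the comparisons share BL as one partner.

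When each array was instead signed by its labelled dyes, as BL over the arrested class, no member passed an adjusted p under 0.05 in limma, although 5.96% of all genes did against 2CB and 2.94% against 8CB. An unadjusted p under 0.05 was then reached by 7 members in each comparison, where all genes gave 28.3% against 2CB and 24.0% against 8CB. When all 12 arrays entered singly, with a term for dye and each swapped pair as a random block, 2 members passed an adjusted p of 0.05 in each comparison. They were SDHC and SDHD against 2CB (6.34% of all genes passed) and UQCRQ and EMC8 against 8CB (1.81%). This model counts the 2 arrays of a swapped pair as partly separate observations (consensus correlation 0.32), although there were 3 pools per class. It also does not pair the numbers across comparisons. In that model 13 members had an unadjusted p under 0.05 against 2CB (21.5% of all genes), of which 9 were among the 11 above, and 8 against 8CB (13.6%), among them all 6 above. ATP5F1C and EMC8 against 2CB were the 2 that no longer had it. Other settings also let members pass. Arrays with BL in Cy5 alone gave 5 members against 2CB (10.6% of all genes) and 2 against 8CB (2.64%) at an adjusted p under 0.05. Those with BL in Cy3 alone gave 0 in both comparisons (0% of all genes). Within 1 dye orientation, class and dye cannot be told apart. Quantile normalization gave 2 against 8CB (0.105%) and 0 against 2CB (0%). An adjusted p under 0.10 was met by 1 member against 2CB (0.789%) and 2 against 8CB (0.237%). Ratios of one number deviated together across comparisons over all genes, but the labels name no pairing and the main fit has no block. With the number as a fixed block 17 members had an unadjusted p under 0.05 against 2CB (25.9% of all genes) and 12 against 8CB (17.0%). None of them had an adjusted p under 0.05 in that model.

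**Figure D1:**
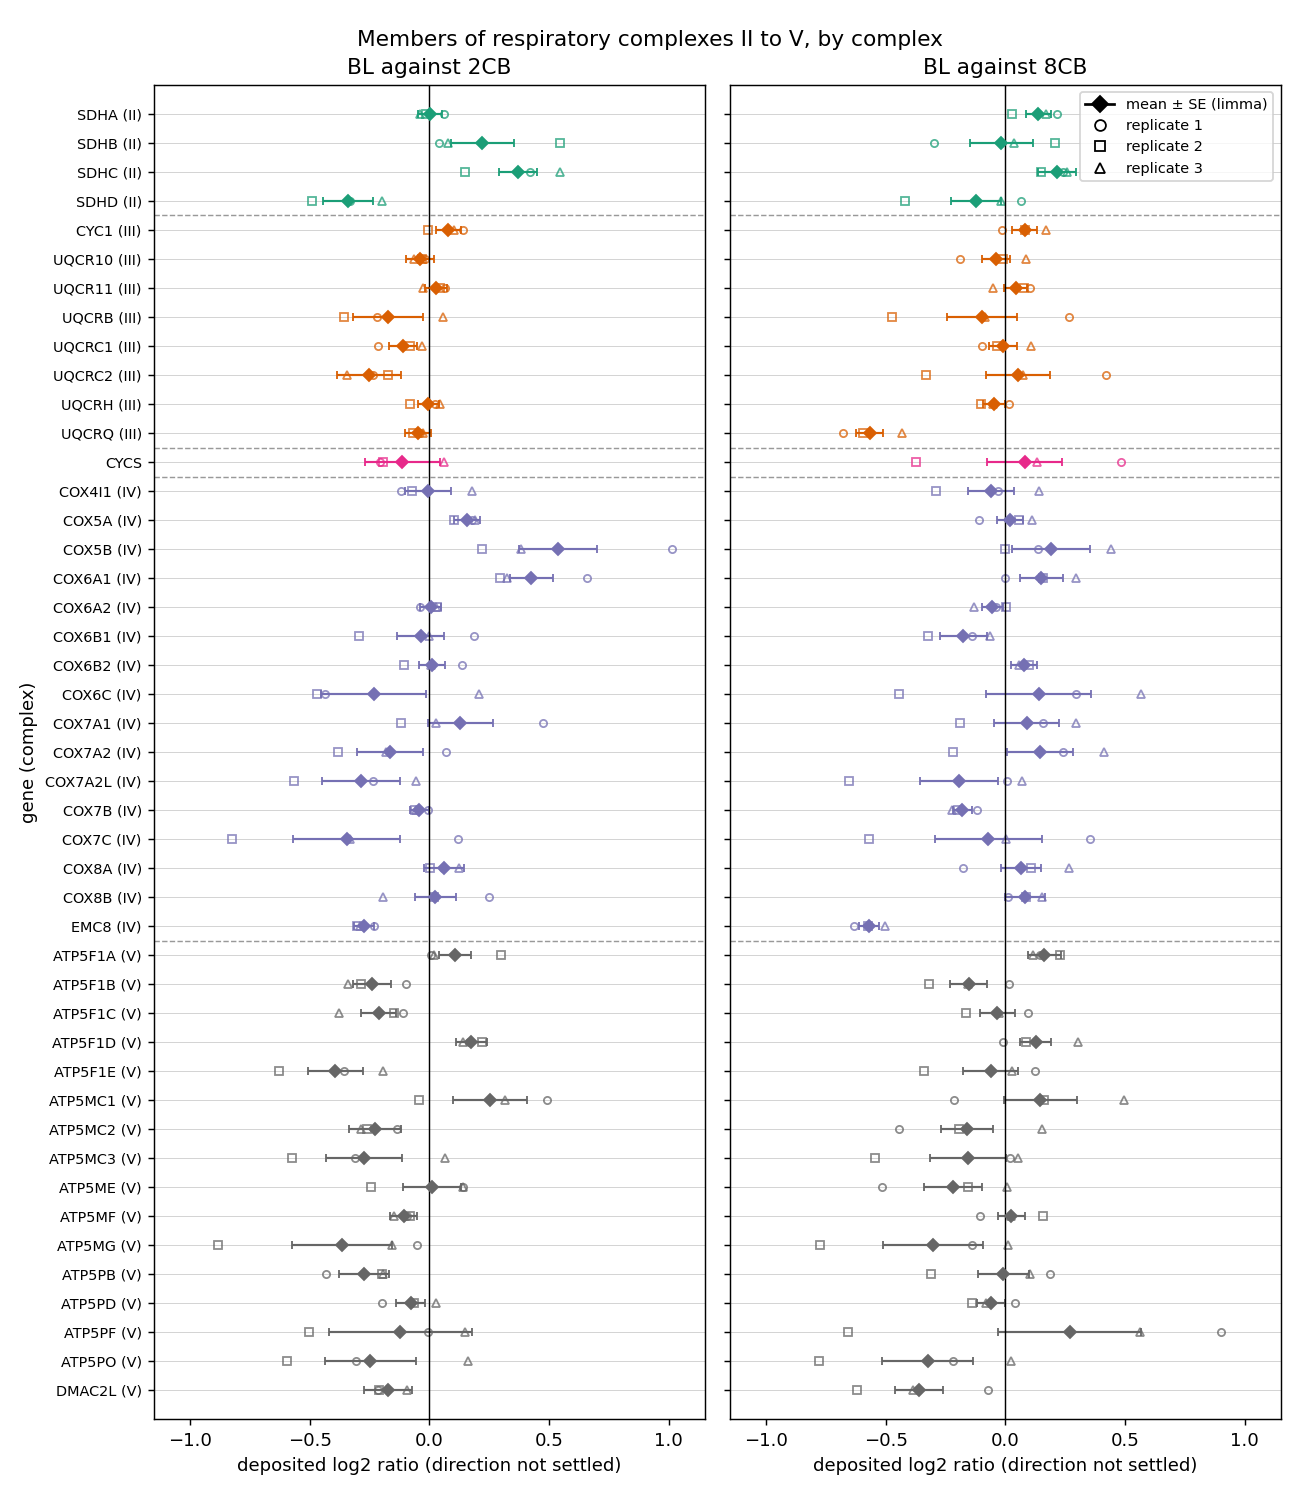
Deposited log2 ratio (x axis, direction not settled) of the 45 members, grouped by complex from II at the top to V at the bottom, in BL against 2CB (left) and BL against 8CB (right). Open symbols are the 3 averaged ratios, and diamonds with bars are the mean ± SE in limma. SDHC lies on the positive side in both panels, and UQCRQ and EMC8 lie near -0.57 in the right panel.

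In complex II, the membrane anchors lay on opposite sides in BL against 2CB. SDHC and SDHD encode the pair of membrane anchors that hold the heme and bind ubiquinone. In BL against 2CB, SDHC lay at 0.42, 0.15 and 0.54 in replicates 1 to 3. SDHD lay at -0.33, -0.49 and -0.20. All 3 ratios were positive for one anchor and negative for the other, without overlap. Of all 15213 genes, 3688 were positive and 3163 negative in 3 of 3 replicates of this comparison. The means were 0.37 ± 0.08 for SDHC (SE from the shared spread, n = 3 ratios, adjusted p = 0.12 in limma) and -0.34 ± 0.10 for SDHD (adjusted p = 0.20). Each array showed the same, with SDHC from 0.11 to 0.63 and SDHD from -0.58 to -0.01 over 6 arrays.

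Probes set the anchors apart. Both SDHC probes lay on the positive side, at 0.35 ± 0.08 and 0.39 ± 0.09, whereas those of SDHD lay at -0.68 ± 0.19 and 0.001 ± 0.036, so its mean rested on 1 probe. With the random block the adjusted p was 0.016 for SDHC and 0.037 for SDHD, within ranges of 0.016 to 0.93 and 0.037 to 0.51 over 15 alternatives. Signed by the labelled dyes, SDHC had -0.0069 against 2CB and -0.12 against 8CB, while SDHD had -0.12 against 2CB.

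Against 8CB, SDHC lay at 0.24, 0.15 and 0.26, all positive, with a mean of 0.22 ± 0.08 (adjusted p = 0.40 in limma). SDHD lay at 0.06, -0.42 and -0.02, with both sides present (mean -0.12 ± 0.10). SDHA, the flavoprotein that oxidises succinate, lay at 0.22, 0.03 and 0.17 there (0.14 ± 0.05, unadjusted p = 0.035 and adjusted p = 0.40 in limma). Its probes disagreed, at -0.06 ± 0.04 and 0.34 ± 0.10. Against 2CB, SDHA lay at 0.06, -0.01 and -0.04, averages of arrays on opposite sides. Its single arrays lay from -0.24 to -0.05 with BL in Cy3 and from 0.06 to 0.18 with BL in Cy5. Signed by the labelled dyes, SDHA had 0.13 ± 0.04 against 2CB (unadjusted p = 0.016 and adjusted p = 0.10 in limma). SDHB, the iron-sulfur subunit that hands electrons on to ubiquinone, lay at 0.04, 0.55 and 0.08 against 2CB and at -0.30, 0.21 and 0.04 against 8CB, with replicate 2 highest in both.

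In complex III, UQCRQ had the largest value, in BL against 8CB. UQCRQ encodes a small subunit next to cytochrome b, known as the ubiquinone-binding protein. In BL against 8CB it lay at -0.68, -0.59 and -0.43, and in BL against 2CB at -0.04, -0.07 and -0.03. The 2 sets of ratios did not overlap, and the share of all genes without overlap was not counted. UQCRQ was negative in 3 of 3 in each comparison, as were 20.8% of all genes against 2CB and 13.7% against 8CB. The mean against 8CB was -0.57 ± 0.05, a 1.48-fold difference (SE from the shared spread, n = 3 ratios, adjusted p = 0.079 in limma). Against 2CB it was -0.05 ± 0.05 (adjusted p = 0.69 in limma). UQCRQ has 1 probe.

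Averaging the swapped arrays narrowed the spread of UQCRQ. Its 6 single arrays against 8CB were all negative but ran from -0.96 to -0.18, with a median of -0.59. The array with BL in Cy3 was the lowest of all in replicate 1 and the highest of all in replicate 3. Entered singly with the random block, the SE was 0.10 and the unadjusted p 0.00015 in limma, beside 4.9e-05 with the ratios averaged. The adjusted p with the random block was 0.023, within a range of 0.023 to 0.88 over 15 alternatives. The highest came from the labelled dyes, where BL over 8CB was 0.03 ± 0.09.

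Apart from the core proteins, the other members of complex III lay close to 0 or moved between replicates. CYC1, which encodes cytochrome c1, lay at 0.14, -0.005 and 0.10 against 2CB and at -0.01, 0.08 and 0.17 against 8CB, with the same mean of 0.08 ± 0.05 in both. The hinge protein gene UQCRH and the small subunits UQCR10 and UQCR11 had means between -0.05 and 0.04 in both comparisons. Of the core proteins, UQCRC2 was negative in 3 of 3 against 2CB (-0.24, -0.17 and -0.35; mean -0.25 ± 0.13) and spread from -0.33 to 0.42 against 8CB. UQCRC1 lay at -0.11 ± 0.06 against 2CB, negative in 3 of 3, and at -0.01 ± 0.06 against 8CB. UQCRB, a small subunit near the ubiquinone site, spread from -0.36 to 0.06 against 2CB and from -0.47 to 0.26 against 8CB. None of these 7 reached an unadjusted p under 0.05 with the ratios averaged as deposited and no block. In other settings some did, none with an adjusted p under 0.05. With the random block UQCRC2 did against 2CB (unadjusted p = 0.038 and adjusted p = 0.20 in limma). UQCRC1 did against 2CB with the fixed block (unadjusted p = 0.048 in limma). Signed by the labelled dyes, UQCRC1 lay at 0.12 and 0.11 (unadjusted p = 0.027 and 0.040 in limma), on the other side from its means above. UQCR10 did against 2CB with BL in Cy5 alone (unadjusted p = 0.039 in limma).

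CYCS, the mobile cytochrome c that links complexes III and IV and also takes part in apoptosis, lay at -0.21, -0.19 and 0.06 against 2CB. Against 8CB it lay at 0.48, -0.37 and 0.13. Both sides were present in each comparison, and the means of -0.11 ± 0.16 and 0.08 ± 0.16 did not differ from 0 beyond the spread between replicates (adjusted p = 0.73 and 0.95 in limma).

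Among complex IV genes, COX5B, COX6A1 and COX5A lay on the positive side in BL against 2CB. COX5B, which encodes a zinc-binding peripheral subunit, lay at 1.015, 0.22 and 0.38. COX6A1, the widely expressed form of subunit VIa, lay at 0.66, 0.30 and 0.33. COX5A, the partner of the regulatory subunit IV, lay at 0.18, 0.10 and 0.19. All 9 of these ratios were positive. The means were 0.54 ± 0.16 for COX5B, 0.43 ± 0.09 for COX6A1 and 0.16 ± 0.05 for COX5A (SE from the shared spread, n = 3 ratios). Adjusted p-values were 0.19, 0.12 and 0.22 in limma, and the SDs of the 3 ratios were 0.42, 0.20 and 0.05. COX5B rested most on replicate 1, without which it lay at 0.30. Signed by the labelled dyes, COX5B lay at 0.02 ± 0.12 (adjusted p = 0.92 in limma), COX6A1 at 0.30 ± 0.14 and COX5A at 0.11 ± 0.05. The 3 probes of COX6A1 agreed in side (0.25, 0.40 and 0.62), while those of COX5A ran from -0.02 to 0.35. On single arrays COX6A1 ranged from -0.34 to 0.99, and its array with BL in Cy3 in replicate 3 was the 1 negative value. Against 8CB the same genes lay at 0.19 ± 0.16, 0.15 ± 0.09 and 0.02 ± 0.05, each with both sides among its replicates.

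**Figure D2:**
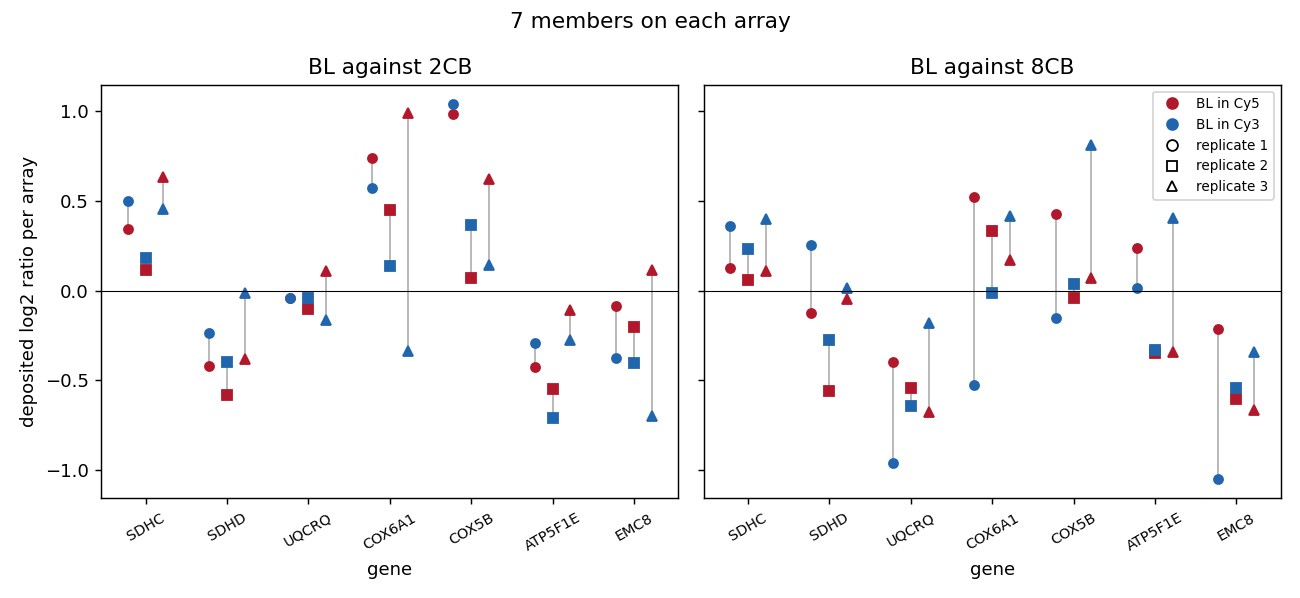
Deposited log2 ratio on each single array (y axis) for 7 members (x axis) in BL against 2CB (left) and BL against 8CB (right). Red symbols have BL in Cy5 and blue symbols BL in Cy3, shapes mark the replicate number, and a grey line joins the swapped arrays of a number. All 6 arrays of SDHC are positive in both panels, and all 6 of UQCRQ and EMC8 are negative in the right panel, where they span -0.96 to -0.18 and -1.05 to -0.21.

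COX7B was the 1 complex IV subunit at an unadjusted p under 0.05 in BL against 8CB. This accessory subunit lay at -0.12, -0.20 and -0.22 there, all negative (-0.18 ± 0.04; adjusted p = 0.22 in limma), and at -0.01, -0.06 and -0.06 against 2CB. COX4I1, the widely expressed regulatory subunit IV, had both sides in each comparison, with means of -0.01 ± 0.10 and -0.06 ± 0.10. COX7C had the widest spread of complex IV genes against 2CB, at 0.12, -0.83 and -0.33, and COX6C against 8CB, at 0.29, -0.44 and 0.57. Replicate 2 was the lowest in both.

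Several complex IV subunits exist in tissue forms, and genes of both forms were measured for VIa, VIb, VIIa and VIII. COX6A2, the heart and muscle form of VIa, lay at -0.04, 0.03 and 0.03 against 2CB, where COX6A1 lay at 0.43 on average, and at -0.04, 0.004 and -0.13 against 8CB. COX6B2, the testis form of VIb, lay at 0.14, -0.11 and 0.005 against 2CB and at 0.08, 0.10 and 0.06 against 8CB. Its means were 0.01 ± 0.05 and 0.08 ± 0.05, beside -0.04 ± 0.10 and -0.18 ± 0.10 for the widely expressed COX6B1. COX8B, the heart and muscle form of VIII, lay at 0.25, 0.02 and -0.19 against 2CB and at 0.01, 0.09 and 0.15 against 8CB. COX8A, the widely expressed form, had means of 0.06 ± 0.09 and 0.07 ± 0.09. Among the genes of VIb and VIII, COX6B2 and COX8B against 8CB and COX8A against 2CB were positive in every replicate, COX6B1 against 8CB was negative in every replicate, and the others had both sides. COX7A1, the heart and muscle form of VIIa, lay at 0.48, -0.12 and 0.03 against 2CB and at 0.16, -0.19 and 0.30 against 8CB. COX7A2, its widely expressed counterpart, lay at 0.07, -0.38 and -0.18, and at 0.24, -0.22 and 0.41. None of COX6A2, COX6B2, COX7A1 and COX8B reached an unadjusted p under 0.05, and without intensities none could be said to lie above background. COX7A2L, the factor that joins complexes III and IV, lay at -0.24, -0.57 and -0.06 against 2CB and at 0.01, -0.65 and 0.07 against 8CB, so that its mean against 8CB (-0.19 ± 0.16) rested on replicate 2.

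EMC8 entered through its older name, which records that it is the neighbour of COX4I1. In the gene table of assembly ARS-UCD2.0 both genes lie next to each other with overlapping spans. EMC8 lay at -0.63, -0.58 and -0.51 in BL against 8CB (-0.57 ± 0.04; adjusted p = 0.069 in limma) and at -0.23, -0.30 and -0.29 in BL against 2CB (-0.27 ± 0.04; adjusted p = 0.097). COX4I1 had no such values. On single arrays against 2CB, EMC8 ran from -0.70 to 0.12 with 1 positive, and with the random block the SE was 0.13, the unadjusted p 0.054 and the adjusted p 0.24. On single arrays against 8CB it ran from -1.05 to -0.21, all negative, and with the random block the SE was again 0.13 and the adjusted p 0.048 (0.028 to 0.88 over 15 alternatives). Signed by the labelled dyes, it lay at 0.22 against 2CB and 0.075 against 8CB. It rested on 1 probe.

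Complex V held the most members on the negative side in BL against 2CB. Of its 15 subunits 11 had a negative mean and 4 a positive one, with a median of -0.21, where 45.8% of all genes were negative. In 3 of 3 replicates 7 were negative (20.8% of all genes). Against 8CB, 10 were negative and 5 positive (47.4% of all genes negative), with a median of -0.06, and 0 were negative in 3 of 3 (13.7% of all genes). With DMAC2L included, 12 of 16 genes were negative against 2CB and 11 against 8CB. With the labelled dyes these counts were 7 and 10, and without replicate 2 they were 11 and 8. In replicates 1 to 3 taken singly they were 12, 14 and 8 against 2CB and 8, 12 and 4 against 8CB. Of all genes, 46.2% to 50.4% were negative in a replicate.

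The catalytic head (F1) split by subunit in BL against 2CB when the ratios were averaged as deposited. ATP5F1B, the beta subunit that carries the catalytic sites, lay at -0.10, -0.29 and -0.34 (mean -0.24 ± 0.08). ATP5F1C, the rotating gamma shaft, lay at -0.11, -0.15 and -0.38 (-0.21 ± 0.07), and ATP5F1E, the epsilon subunit at its foot, at -0.36, -0.63 and -0.19 (-0.39 ± 0.12). These 3 were negative on every averaged ratio. ATP5F1D, the delta subunit that sits beside epsilon, lay on the other side at 0.17, 0.22 and 0.14 (0.18 ± 0.07), and ATP5F1A, the alpha subunit, at 0.004, 0.30 and 0.02 (0.11 ± 0.07). Unadjusted p-values were under 0.05 for the first 4, and limma's adjusted p-values ranged from 0.18 to 0.25. The 3 probes of ATP5F1C ran from -0.38 to -0.06. On single arrays ATP5F1D lay at 0.39, 0.35 and 0.30 with BL in Cy5 and at -0.06, 0.08 and -0.02 with BL in Cy3. Signed by the labelled dyes, the 3 negative genes lay at 0.094 (ATP5F1B), 0.15 (ATP5F1C) and 0.033 (ATP5F1E). ATP5F1D lay at 0.17 and ATP5F1A at 0.15 under that reading, so the head did not split by side.

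Against 8CB the head showed smaller values. ATP5F1A lay at 0.14, 0.23 and 0.12, positive in every replicate (0.16 ± 0.07, adjusted p = 0.47 in limma). ATP5F1B lay at 0.01, -0.32 and -0.16, and ATP5F1E at 0.12, -0.34 and 0.03. ATP5F1D lay at -0.01, 0.09 and 0.30, and ATP5F1C at 0.09, -0.17 and -0.03. Apart from ATP5F1A, each had both sides among its replicates.

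Of the stator stalk, ATP5PB, the b subunit, lay at -0.43, -0.20 and -0.19 against 2CB (-0.27 ± 0.11, unadjusted p = 0.041 and adjusted p = 0.26 in limma; -0.05 when signed by the labelled dyes) and at 0.19, -0.31 and 0.10 against 8CB. ATP5PO, the OSCP subunit that ties the stalk to the head, lay at -0.31, -0.60 and 0.16, and at -0.22, -0.78 and 0.02. ATP5PF, coupling factor 6, spread the most of all members against 8CB, at 0.90, -0.66 and 0.56. ATP5PD, the d subunit, stayed between -0.20 and 0.04 in both comparisons. Replicate 2 was the lowest for the first 3 of these against 8CB.

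Subunit c, the proton-carrying ring, is made from 3 genes that encode the same mature protein behind different import signals. In BL against 2CB, ATP5MC1 lay at 0.49, -0.04 and 0.32, ATP5MC2 at -0.14, -0.26 and -0.29, and ATP5MC3 at -0.31, -0.57 and 0.06. ATP5MC1 lay above ATP5MC2 in every replicate, with all 3 of its probes on the positive side (0.16, 0.21 and 0.40). In BL against 8CB the values were -0.22, 0.16 and 0.50 for ATP5MC1, -0.44, -0.19 and 0.15 for ATP5MC2, and 0.02, -0.55 and 0.05 for ATP5MC3. None of the 3 genes reached an unadjusted p under 0.05, with means from -0.27 ± 0.16 to 0.25 ± 0.15 against 2CB.

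Among the other membrane subunits, which hold the dimer and shape the cristae, ATP5MG (subunit g) lay at -0.05, -0.88 and -0.16 against 2CB and at -0.14, -0.78 and 0.01 against 8CB. ATP5ME (subunit e) lay at 0.01 ± 0.12 and -0.22 ± 0.12, and ATP5MF (subunit f) at -0.11 ± 0.06 and 0.03 ± 0.06. The coupling factor DMAC2L lay at -0.22, -0.21 and -0.10 against 2CB and at -0.07, -0.62 and -0.39 against 8CB. Its mean against 8CB, -0.36 ± 0.10 (adjusted p = 0.28 in limma), came mostly from 1 of 3 probes, at -0.93 ± 0.10, the others being at -0.15 and -0.002.

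**Figure D3:**
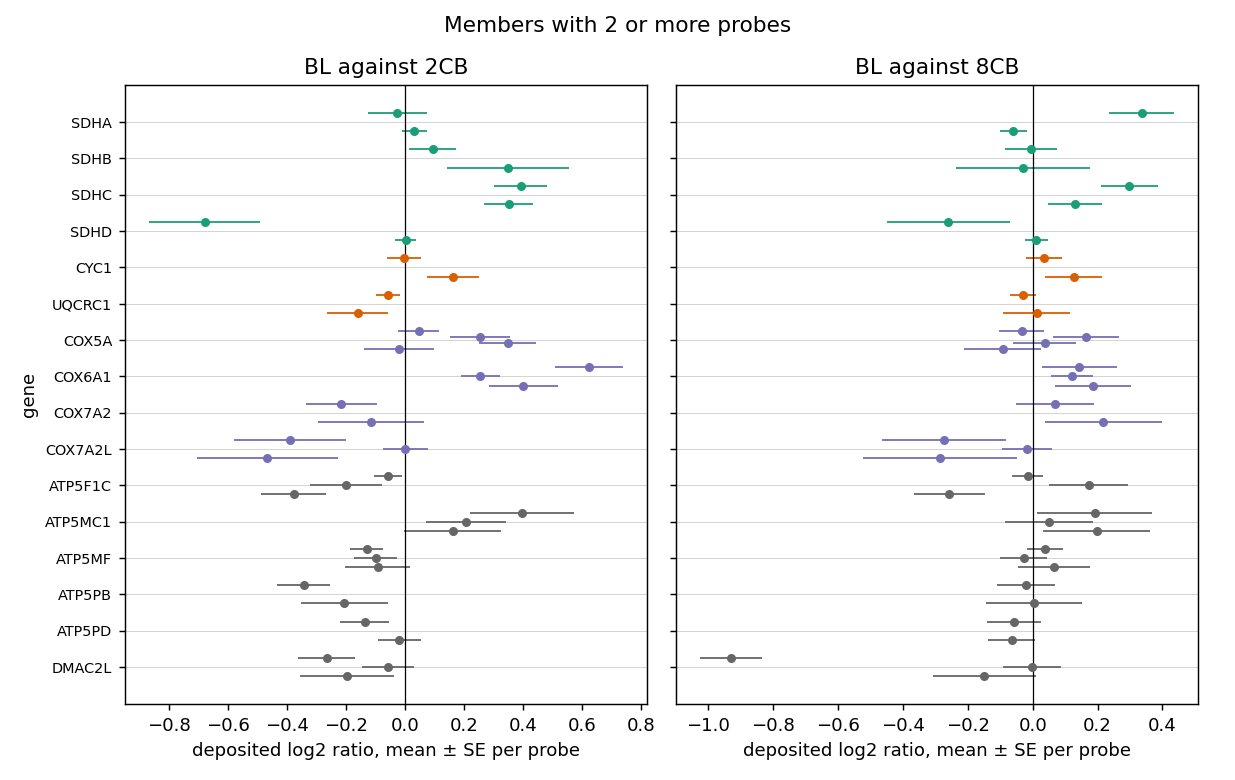
Deposited log2 ratio of each probe (mean ± SE in limma, x axis) for the 16 members with more than 1 probe (y axis), in BL against 2CB (left) and BL against 8CB (right), coloured by complex as in the plot of all members. The SDHD probes lie at -0.68 and 0.001 in the left panel, and 1 of the 3 DMAC2L probes lies at -0.93 in the right panel.

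Probes of a gene often differed. Of the 16 members with more than 1 probe, 11 had all probe means on one side against 2CB and 9 against 8CB. Over single probes no member probe and no probe at all (0%) passed an adjusted p under 0.05 in limma. At an unadjusted p under 0.05 there were 16 of 69 member probes against 2CB (23.2%, beside 16.6% of all probes) and 6 against 8CB (8.70%, beside 9.78%).

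The replicates differed for the members as a whole. Replicate 2 had 34 of 45 members below 0 against 2CB (75.6%, beside 46.2% of all genes) and 30 against 8CB (66.7%, beside 46.8%), with member medians of -0.11 and -0.19. Against 2CB, replicates 1 and 3 had 25 and 22 members below 0 (55.6% and 48.9%, beside 48.9% and 48.4% of all genes). Against 8CB they had 21 and 13 (46.7% and 28.9%, beside 50.4% and 48.9%), so replicate 3 leaned to the positive side there. In replicate 2, complex V had 14 and 12 of 16 genes below 0, and complex III had 7 and 6 of 8, the same shares. Complex IV had 10 of 16 in both comparisons, and complex II had 2 and 1 of 4. Across the 45 members, the deviations from the mean of a comparison correlated between the comparisons at 0.63 for replicate 2, 0.47 for replicate 3 and -0.01 for replicate 1. Members are not independent replicates, and the comparisons may share BL pools under one number, which the labels do not say.

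**Figure D4:**
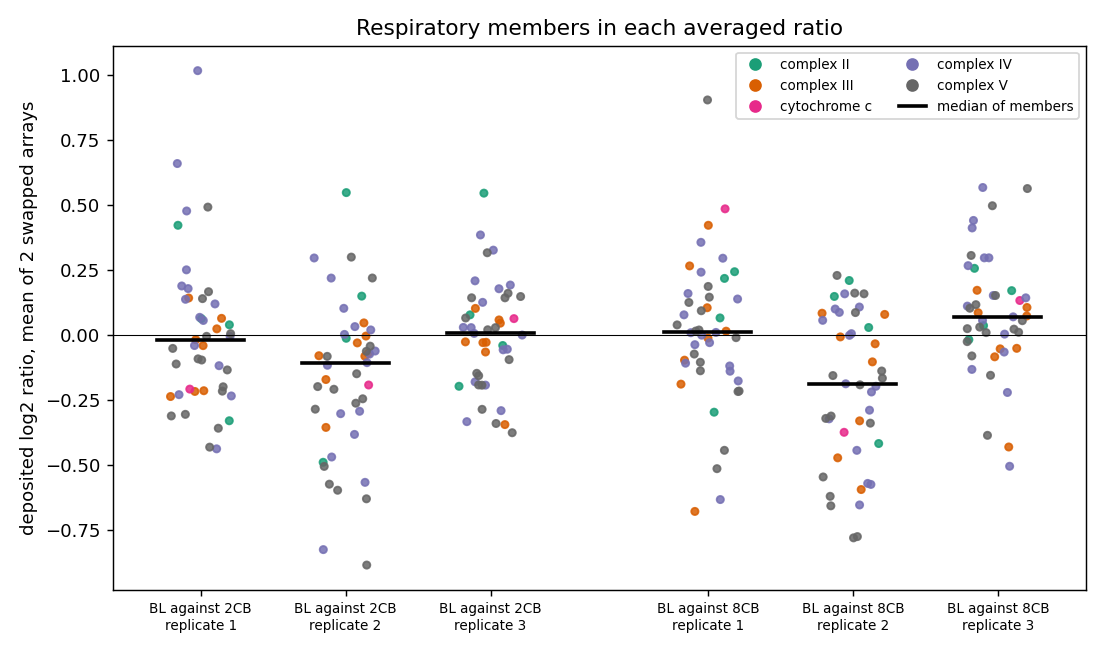
Deposited log2 ratio of the 45 members (y axis, mean of the swapped arrays) in each of the 6 averaged ratios (x axis), coloured by complex, with a bar at the median. The medians of replicate 2 are the lowest of each comparison, at -0.11 against 2CB and -0.19 against 8CB.

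2CB and 8CB were never on one array, and their contrast is the mean ratio of BL against 2CB less that of BL against 8CB. No member and no gene (0%) passed an adjusted p under 0.05 in limma. Only 2 of 45 members (4.44%) had an unadjusted p under 0.05, where all genes gave 4.23%. They were UQCRQ at 0.52 ± 0.08 and EMC8 at 0.30 ± 0.06 (SE from the shared spread, n = 3 ratios per comparison, adjusted p = 0.93 for each in limma). Both differences came from the lower ratios against 8CB given above. With the number as a fixed block 6 members reached an unadjusted p under 0.05 (9.40% of all genes). There were 9 without replicate 2 (8.03% of all genes) and 0 with the labelled dyes (0.973%). With the random block UQCRQ remained (SE 0.15, unadjusted p = 0.0041 and adjusted p = 0.60 in limma), 1 member where all genes gave 5.53%, and EMC8 did not (SE 0.18, unadjusted p = 0.13).

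Genes that work with these complexes were described from 6 lists. Of 36 complex I subunits, 10 had an unadjusted p under 0.05 against 2CB (5 on each side; 27.8%) and 2 against 8CB (both negative), led by NDUFS8 at 0.40 ± 0.08 and NDUFS1 at -0.39 ± 0.11. Of 37 assembly factors of complexes II to V, 9 did against 2CB (3 positive, 6 negative) and 4 against 8CB (1 positive, 3 negative). The copper chaperone COX11 led the first at -0.26 ± 0.06 and COX15, which makes heme A, the second at 0.21 ± 0.05. The shares against 2CB were 27.8% for complex I and 24.3% for the assembly factors, beside 18.0% of all genes. Against 8CB they were 5.56% and 10.8%, beside 11.0%.

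Regulators of mitochondrial gene expression gave 5 of 19 against 2CB (1 positive, 4 negative; 26.3%) and 1 against 8CB (5.26%). Both were led by the coactivator PPRC1, at -0.42 ± 0.04 and -0.33 ± 0.04 (adjusted p = 0.091 and 0.090 in limma). The citric acid cycle gave 5 of 12 (3 positive, 2 negative; 41.7%, beside 18.0% of all genes) and 2 of 12 (1 on each side; 16.7%, beside 11.0%), led in both by IDH3G, a subunit of isocitrate dehydrogenase, at 0.19 ± 0.05 and 0.20 ± 0.05. Other electron donors to ubiquinone and its synthesis gave 6 of 20 (2 positive, 4 negative) and 5 of 20 (4 positive, 1 negative), led by choline dehydrogenase, CHDH, at -0.66 ± 0.11 and -0.51 ± 0.11. ATP and phosphate carriers and porins gave 3 of 11 (2 positive, 1 negative; 27.3%) and 5 of 11 (all positive; 45.5%, beside 11.0% of all genes), led by the ADP/ATP carrier SLC25A6 at 0.84 ± 0.12 against 2CB and the creatine kinase CKMT2 at 0.16 ± 0.04 against 8CB. No gene of these lists passed an adjusted p under 0.05. The list of carriers includes ATP5IF1, the inhibitor of the ATP synthase, which the table holds under an older name outside the rule. It lay at 0.25, 0.32 and 0.19 against 2CB and at 0.28, 0.05 and 0.45 against 8CB, positive in all 6 (0.25 ± 0.08 and 0.26 ± 0.08). The small membrane subunits ATP5MK (0.15 ± 0.15 and 0.12 ± 0.15) and ATP5MJ (-0.04 ± 0.09 and -0.13 ± 0.09), also outside the rule, had both sides among their replicates.

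Ratios carry no level, so the labelled cell type could not be checked against its markers. Of 13 oocyte markers, 9 (69.2%, beside 18.0% of all genes) had an unadjusted p under 0.05 against 2CB, 8 positive and 1 negative. The list median was 0.32, with a range of -0.29 to 0.98. Against 8CB there was 1 (7.69%, beside 11.0% of all genes), positive, with a list median of 0.16. The smallest p-values of the oocyte markers belonged to H1-8 at 0.69 ± 0.17 and ZP4 at 0.40 ± 0.15. Cumulus and granulosa markers gave 1 of 15 in each comparison (medians -0.01 and -0.03; INHBA at 0.30 ± 0.08 and CYP11A1 at -0.16 ± 0.05), sperm and testis markers 2 of 10 and 0 of 10 (medians 0.04 and 0.02; SPATA19 at 0.13 ± 0.04 and TNP1 at 0.08 ± 0.04), and blood and immune markers 0 of 10 in both (medians 0.03 and 0.01; CD8A at 0.07 ± 0.04 and CD3E at -0.16 ± 0.08). The other sperm marker with an unadjusted p under 0.05 against 2CB was ZPBP, which binds the zona pellucida, at -0.40 ± 0.16, a gene named here after its value was seen. The part of these genes in the values of the respiratory members was not tested.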

How the data were processed

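The values were the authors' deposited log ratios, 1 per probe and array of a 2-colour Agilent slide. The submitters' processing notes name limma, without a version. No source names the log base. It was read as log2, the scale limma uses. Column medians lay between -0.004 and 0.010, so the deposited log2 ratios were centred. For background correction and normalization within arrays, the method is not given in the sources. The tables held 43795 rows, and 2 were dropped, 1 for lacking a value and 1 for its probe name. The probe table gave 1 symbol to 21790 probes, several to 0 and none to 22003. Symbols were updated through the gene table of assembly ARS-UCD2.0 for 1644 probes, 20068 were current and 78 were kept.

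Swapped arrays of a replicate number were averaged as deposited. The 6 averaged ratios entered 1 linear model (limma 3.58.1, R 4.3.3, functions lmFit and eBayes) with a coefficient for each comparison, a shared spread and two-sided p-values adjusted over 15213 genes at a threshold of 0.05. A fit over probes used 43793. Averaged ratios of one number deviated together across comparisons (r = 0.28, 0.39 and 0.37 for numbers 1 to 3), so the numbers pair the samples by this measure. The main fit and its contrast did not use this pairing, and the fixed replicate block is the alternative that did. The number of arrays limits the precision. The fit was tested on simulated data. Members and lists were chosen with earlier results of these data known. Named were all members at an unadjusted p under 0.05, the SDH genes, CYC1, CYCS, the subunit c genes, tissue forms and, per list, the gene with the smallest p; others named for their spread or as genes beside the rule were chosen after their values were seen. Plots were made in matplotlib 3.10.9 (Python 3.11.15).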

Additional observations from a re-analysis of the deposited data

How the results depend on the processing

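Counts of members at an adjusted p under 0.05 stayed at 0 under the labelled dyes, the fixed replicate block, arrays with BL in Cy3, separate fits, scale normalization, robust moderation, median of probes, symbols as given, the filter on SD and each replicate left out. They were 2 against 2CB and 2 against 8CB with the random replicate block (6.34% and 1.81% of all genes), 5 and 2 with BL in Cy5 alone (10.6% and 2.64%), and 1 and 2 at an adjusted p under 0.10 (0.789% and 0.237%). With quantile normalization they were 0 and 2 (0% and 0.105%). Counts at an unadjusted p under 0.05, 11 against 2CB, 6 against 8CB and 2 between arrested classes, moved to 7, 7 and 0 with the labelled dyes and to 17, 12 and 6 with the fixed replicate block. With the random replicate block there was 1 between arrested classes. Arrays with BL in Cy3 alone gave 7 against 2CB (18.1% of all genes) and 1 between arrested classes (3.83%), and those with BL in Cy5 alone 10 against 8CB (21.9%). Leaving out a replicate gave 7 to 9, 4 to 7 and 2 to 9, the 7 against 2CB without replicate 1 or 3 (17.5% and 9.75% of all genes) and the 9 between arrested classes without replicate 2 (8.03%). With the random replicate block the counts were 13 against 2CB (21.5% of all genes) and 8 against 8CB (13.6%). Against 2CB it dropped ATP5F1C and EMC8 and added UQCRC2, COX7A2L, ATP5MC3 and ATP5MG, against 8CB it added ATP5F1A and ATP5ME, and between arrested classes it dropped EMC8. The fixed replicate block dropped ATP5PB against 2CB and added 7, 6 and 4 members.

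Of the values at an unadjusted p under 0.05, 8 changed side, each under the labelled dyes alone. Against 2CB these were SDHC (-0.0069), EMC8 (0.22), ATP5F1B (0.094), ATP5F1C (0.15) and ATP5F1E (0.033), and against 8CB SDHC (-0.12), UQCRQ (0.028) and EMC8 (0.075). The deposited direction is unknown, and the cause was not tested. Without intensities, signal over background could not set a limit.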
